A study of Mus musculus with 7 samples.

Results

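The genes of the NF-kappaB system were followed across 4 groups of mouse bone marrow-derived macrophages: the 5 subunit genes Nfkb1, Nfkb2, Rel, Rela and Relb, and the 5 inhibitor genes Nfkbia, Nfkbib, Nfkbie, Nfkbiz and Tnfaip3. These 10 genes were chosen by name, with earlier results of these data known, from the 23337 genes in the deposited tables. All 10 were present and passed the filter on low values. Bone marrow cells of male mice aged 6-8 weeks were grown into macrophages for 7 days with M-CSF, a macrophage growth factor, at 25 ng/ml. The groups were Tgm2 KO cells given LPS (KO LPS, n = 2), WT cells given LPS (WT LPS, n = 2), Tgm2 KO cells without LPS (KO M0, n = 1) and WT cells without LPS (WT M0, n = 2). LPS, a bacterial cell wall component, was given at 10 ng/ml for 6 hours. Tgm2 encodes transglutaminase 2, a protein-crosslinking enzyme. How the allele was made, and the strain of the mice, are not given in the labels. Values are TPM, a length-scaled level that sums to 1000000 in every library and keeps no sequencing depth, so the depth behind each value is unknown. The labels do not tie replicates to different mice or dishes. The p-values therefore reflect the spread between these libraries, which may be technical. The 10 genes lie, on GRCm38, at chr3:135584655-135691969 (Nfkb1), chr19:46300994-46312400 (Nfkb2), chr11:23736847-23770969 (Rel), chr19:5637442-5648134 (Rela), chr7:19606217-19629438 (Relb), chr12:55489409-55492647 (Nfkbia), chr7:28758251-28766644 (Nfkbib), chr17:45555700-45563169 (Nfkbie), chr16:55811375-55838954 (Nfkbiz) and chr10:19000910-19015410 (Tnfaip3), and all are protein-coding.

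NF-kappaB is a family of dimeric transcription factors that carry inflammatory signals from receptors such as Tlr4, the LPS sensor, to the nucleus. Rela, Rel and Relb proteins hold transactivation domains, while Nfkb1 and Nfkb2 encode precursors that are processed to the DNA-binding proteins p50 and p52. In resting cells the dimers are held in the cytoplasm by IkappaB proteins, the products of Nfkbia (IkappaB alpha), Nfkbib (IkappaB beta) and Nfkbie (IkappaB epsilon), which are phosphorylated by the IKK kinases and degraded after a signal. Several of these genes are themselves NF-kappaB targets, so the pathway rebuilds its own inhibitors. Transcript levels show neither the location of the proteins nor their activity.

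The libraries were checked before the members were compared. Tgm2, the targeted gene, had 19.4 and 19.2 TPM in KO LPS, against 233 and 199 TPM in WT LPS. Without LPS it had 50.7 TPM in KO M0, against 433 and 368 TPM in WT M0. Both WT LPS libraries stood apart in a sex-linked transcript, since Xist was at 47.2 and 55.4 TPM there and at 0.00535 TPM or listed at 0 in the other 5 libraries, although all are labelled male. The Y-linked transcripts Eif2s3y, Ddx3y and Kdm5d were lowest in the same libraries. Eif2s3y had 32.8 and 37.2 TPM in WT LPS and 66.1 to 78.3 TPM in the other 5 libraries. Every comparison that uses WT LPS carries this difference, and its part in the results was not tested. No member lies on X or Y. WT M0 replicate 2 lay nearer to KO M0 (median absolute log2 difference over genes 0.0959) than to WT M0 replicate 1 (0.221). Macrophage markers (7 of 8 listed genes found) summed to 37709 and 38996 TPM in KO LPS and 37308 and 40405 TPM in WT LPS. The sum was 48478 TPM in KO M0 and 50199 and 45819 TPM in WT M0. Most of each sum was Lyz2, and the genes did not move alike. Cd68 was lower and Fcgr1 higher in every LPS library than in every untreated one. The neutrophil list (7 of 8 found) summed to 106 and 161 TPM in KO LPS, 208 and 333 TPM in WT LPS, 5.01 in KO M0 and 8.48 and 7.97 in WT M0, most of it S100a8. Of the granule genes, Elane, Ngp and Ltf were listed at 0 in every LPS library, while Camp had 9.16 and 9.14 TPM in KO LPS and 12.03 and 11.01 TPM in WT LPS, against 0 in KO M0 and 0.906 and 0.378 TPM in WT M0. The stromal and endothelial list (8 of 8 found) summed to 70.4 and 64.6 TPM in KO LPS, 31.9 and 29.0 TPM in WT LPS, 30.8 in KO M0 and 34.5 and 45.5 in WT M0, and its genes went in opposite directions. Kdr had 37.9 and 38.9 TPM in KO LPS and 12.7 and 7.30 TPM in WT LPS, against 7.43 TPM in KO M0 and 4.98 and 5.15 TPM in WT M0. Pdgfrb was at 18.2 to 27.7 TPM in the LPS libraries and 1.81 to 2.29 TPM in the untreated ones. Col1a1 had 1.18 and 1.56 TPM in KO LPS and was listed at 0 in WT LPS, against 10.4 TPM in KO M0 and 13.2 and 18.6 TPM in WT M0. The part of these marker levels in the results was not tested, and in bulk RNA fewer cells of a type and less RNA per cell cannot be told apart. The T and NK cell, B cell, dendritic cell and erythroid and mast cell lists each summed to 14.9 TPM or less in every library, and among those genes Cd3g, Pax5, Ebf1, Hba-a1 and Fcer1a were listed at 0 throughout.

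All 10 genes were well expressed in every group, and Nfkbia was the highest and Rel the lowest in each. Without LPS the single KO M0 library and the WT M0 mean gave nearly the same order. In WT M0, mean TPM ran from 610 for Nfkbia through 358 (Nfkb1), 322 (Nfkb2), 228 (Nfkbie), 196 (Relb), 160 (Tnfaip3), 155 (Rela), 97.7 (Nfkbib) and 70.8 (Nfkbiz) to 46.0 for Rel. Tnfaip3 and Rela were the only neighbours in that order whose libraries overlapped. Under LPS the order changed. Tnfaip3, which encodes the ubiquitin-editing enzyme A20, had rank 2, with a KO LPS mean of 465 TPM and a WT LPS mean of 314 TPM. Nfkbiz, the gene of the nuclear protein IkappaB zeta, which acts on selected targets as a coactivator, had rank 5 in KO LPS (249 TPM) and rank 7 in WT LPS (177 TPM). Neighbours with overlapping libraries were Nfkb2 with Nfkbiz and Relb with Nfkbib in KO LPS, and Nfkb1 with Nfkb2, Nfkbie with Rela and Rela with Nfkbiz in WT LPS.

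**Figure D1:**
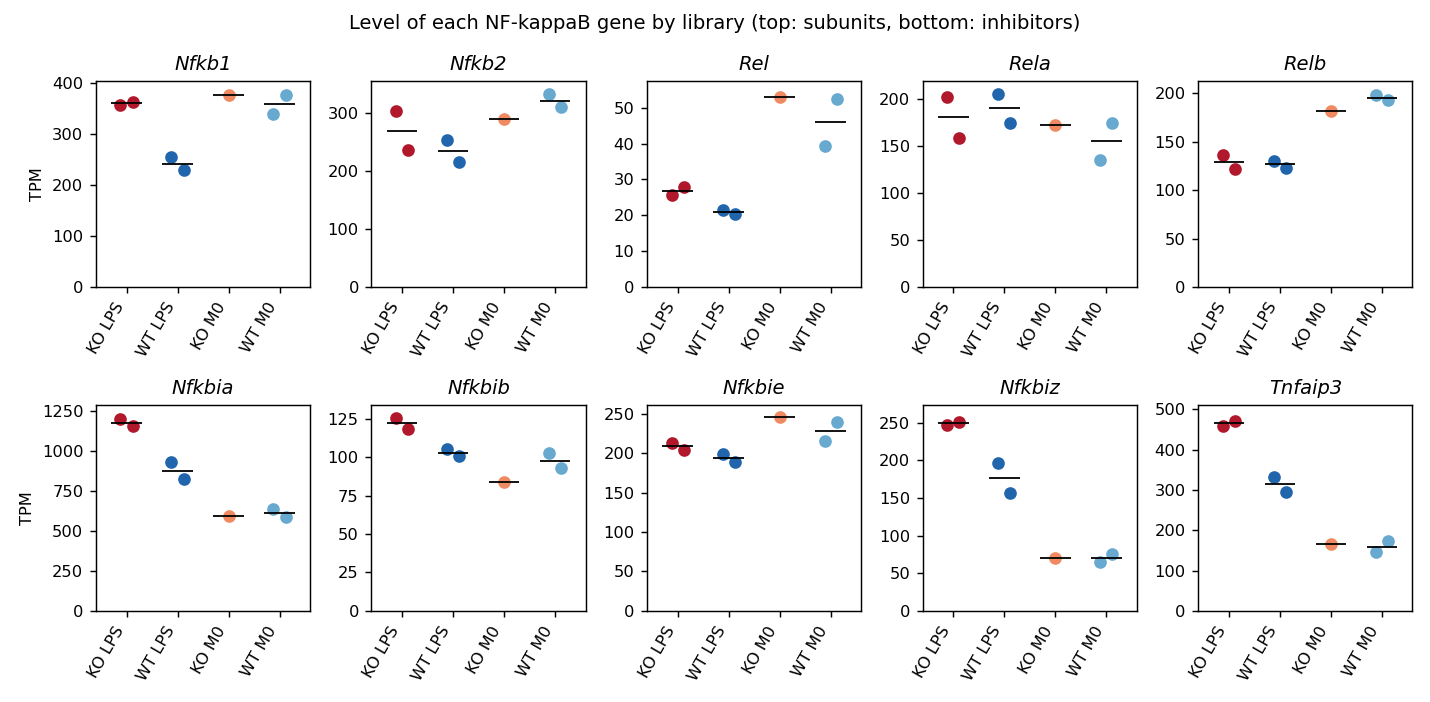
TPM of each of the 10 genes (panels, linear axis from 0) in KO LPS, WT LPS, KO M0 and WT M0. Points are libraries and bars are group means. Nfkbiz, Tnfaip3 and Nfkbia are higher in all 4 LPS libraries than in all 3 untreated ones, and Rel, Relb and Nfkbie are lower. For Nfkbie the margin is small (at most 213 TPM against at least 216 TPM), and its LPS change did not pass in either genotype.

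LPS raised 3 genes of the inhibitor list in both genotypes, among them Nfkbiz, whose product acts on selected targets as a coactivator. Nfkbiz had 247 and 252 TPM in KO LPS and 196 and 157 TPM in WT LPS, against 69.8 TPM in KO M0 and 65.6 and 76.1 TPM in WT M0. Every LPS library lay above every untreated library. The log2 fold change, computed on log2(TPM + 1), was 1.82 in knockout cells (SE 0.20, limma adjusted p 6.4e-05) and 1.30 in wild-type cells (SE 0.17, adjusted p 0.000125). Tnfaip3 had 459 and 471 TPM in KO LPS and 333 and 295 TPM in WT LPS, against 166 TPM in KO M0 and 146 and 173 TPM in WT M0. Its LPS and untreated libraries did not overlap in either genotype. Its log2 fold change was 1.48 in knockout (SE 0.19, adjusted p 0.000165) and 0.97 in wild type (SE 0.16, adjusted p 0.000552).

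Nfkbia, the gene of the most abundant inhibitor transcript here, rose as well. It stood at 1196 and 1154 TPM in KO LPS and 928 and 822 TPM in WT LPS, against 593 TPM in KO M0 and 634 and 586 TPM in WT M0. The groups did not overlap, and the log2 fold change was 0.98 in knockout (SE 0.18, limma adjusted p 0.00184) and 0.52 in wild type (SE 0.15, adjusted p 0.0164). Leaving out WT LPS replicate 1 (0.43, adjusted p 0.152) or WT M0 replicate 2 (0.46, adjusted p 0.0693) ended the wild-type call.

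The other IkappaB genes had smaller changes. Nfkbib had 126 and 118 TPM in KO LPS against 83.6 TPM in KO M0, and 105 and 101 TPM in WT LPS against 103 and 92.7 TPM in WT M0. The knockout groups did not overlap and the wild-type groups did. Its log2 fold change passed in knockout cells (0.54, SE 0.18, limma adjusted p 0.0412) and not in wild-type cells (0.08, SE 0.15, adjusted p 0.705), and the difference between these LPS changes did not pass (adjusted p 0.561). Of 13 alternatives 7 ended the knockout call. It was lost with the compared groups alone (adjusted p 0.0815), with quantile normalization (0.49, adjusted p 0.0571), and without KO LPS replicate 1 (0.50, adjusted p 0.114), KO LPS replicate 2 (0.58, adjusted p 0.0736), WT LPS replicate 1 (adjusted p 0.0723), WT LPS replicate 2 (adjusted p 0.0724) or both WT LPS libraries (adjusted p 0.0723). Quantile normalization and the last of these were added with the data in view. Nfkbie did not pass in either genotype, with a log2 fold change of -0.24 in knockout (SE 0.18, adjusted p 0.326) and -0.23 in wild type (SE 0.15, adjusted p 0.221). It stood at 213 and 205 TPM in KO LPS and 199 and 188 TPM in WT LPS, against 246 TPM in KO M0 and 216 and 240 TPM in WT M0. The LPS libraries lay below the untreated ones of the same genotype.

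Among the subunits LPS lowered Rel in both genotypes and Relb and Nfkb1 in wild type, while Rela and Nfkb2 did not pass in either. Rel, which encodes c-Rel, a subunit of haematopoietic cells, had 25.7 and 27.8 TPM in KO LPS and 21.4 and 20.3 TPM in WT LPS, against 53.0 TPM in KO M0 and 39.4 and 52.5 TPM in WT M0. Every LPS library was below every untreated one. Its log2 fold change was -0.96 in knockout (SE 0.23, limma adjusted p 0.00706) and -1.09 in wild type (SE 0.18, adjusted p 0.000824).

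Relb, a subunit of the non-canonical pathway that pairs with p52, had 136 and 122 TPM in KO LPS and 130 and 123 TPM in WT LPS, against 182 TPM in KO M0 and 199 and 193 TPM in WT M0. Each LPS library lay below each untreated one. The log2 fold change was -0.62 in wild type (SE 0.15, limma adjusted p 0.00629), a call that median-ratio scaling ended (-0.40, adjusted p 0.0577), as did leaving out WT LPS replicate 2 (-0.59, adjusted p 0.0533). In knockout cells it was -0.49 (SE 0.18, adjusted p 0.0543) and did not pass, but it passed when low values were not filtered out (adjusted p 0.0387), with the replicate block (0.0294) and quantile normalization (-0.64, adjusted p 0.0185).

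Nfkb1 showed the LPS decrease in wild type: 254 and 229 TPM in WT LPS against 339 and 376 TPM in WT M0, with a change of -0.56 (SE 0.15, limma adjusted p 0.0106). It was 357 and 361 TPM in KO LPS against 375 TPM in KO M0, with a change of -0.06 (SE 0.18, adjusted p 0.816). The groups did not overlap in either genotype. Median-ratio scaling ended the wild-type call (-0.34, adjusted p 0.0925), as did leaving out WT LPS replicate 2 (-0.49, adjusted p 0.0963) or WT M0 replicate 2 (-0.49, adjusted p 0.0518). The knockout value changed sign between alternatives, from -0.27 to 0.19, without passing in any.

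Nfkb2 had 303 and 237 TPM in KO LPS and 254 and 216 TPM in WT LPS, against 291 TPM in KO M0 and 333 and 310 TPM in WT M0. KO M0 lay between the KO LPS libraries, and the wild-type groups did not overlap. The log2 fold change was -0.12 in knockout (SE 0.21, limma adjusted p 0.687) and -0.46 in wild type (SE 0.17, adjusted p 0.0513). The wild-type change passed when KO LPS replicate 1 (adjusted p 0.0355) or KO LPS replicate 2 (adjusted p 0.0351) was left out, and among the other alternatives with the compared groups alone (adjusted p 0.0345) and quantile normalization (adjusted p 0.0195). In annotated exons Nfkb2 shares 531 bases with a long non-coding RNA gene and 299 bases with Psd, both on the opposite strand, and Nfkbib shares 314 bases with Ccer2 and 42 with Sirt2, so reads there cannot be told apart if counting ignored strand. Rela, which encodes p65, had 202 and 158 TPM in KO LPS and 205 and 175 TPM in WT LPS, against 172 TPM in KO M0 and 135 and 174 TPM in WT M0. The knockout groups overlapped and the wild-type groups did not. Its log2 fold change was 0.06 in knockout (SE 0.23, limma adjusted p 0.864) and 0.30 in wild type (SE 0.19, adjusted p 0.217).

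In counts, LPS raised 4 and lowered 1 of the 10 genes in knockout cells, where 13.8% of the 11096 tested genes were called higher and 24.3% lower. In wild-type cells it raised 3 and lowered 3, where 15.0% were called higher and 29.6% lower. The median log2 fold change of the 10 genes was -0.00 in knockout (-0.24 over all tested genes) and -0.08 in wild type (-0.21 over all tested genes). Scaling turned these medians: with median-ratio scaling they were 0.25 in knockout and 0.14 in wild type (-0.01 over all tested genes in each). With quantile normalization they lay below all tested genes, at -0.18 against -0.07 in knockout and -0.16 against -0.03 in wild type. Relative to the median gene the rises were larger, at 2.06 for Nfkbiz, 1.72 for Tnfaip3 and 1.22 for Nfkbia in knockout. In wild type they were 1.51, 1.18 and 0.73. The fall of Rel relative to the median gene was smaller, at -0.72 in knockout and -0.88 in wild type.

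**Figure D2:**
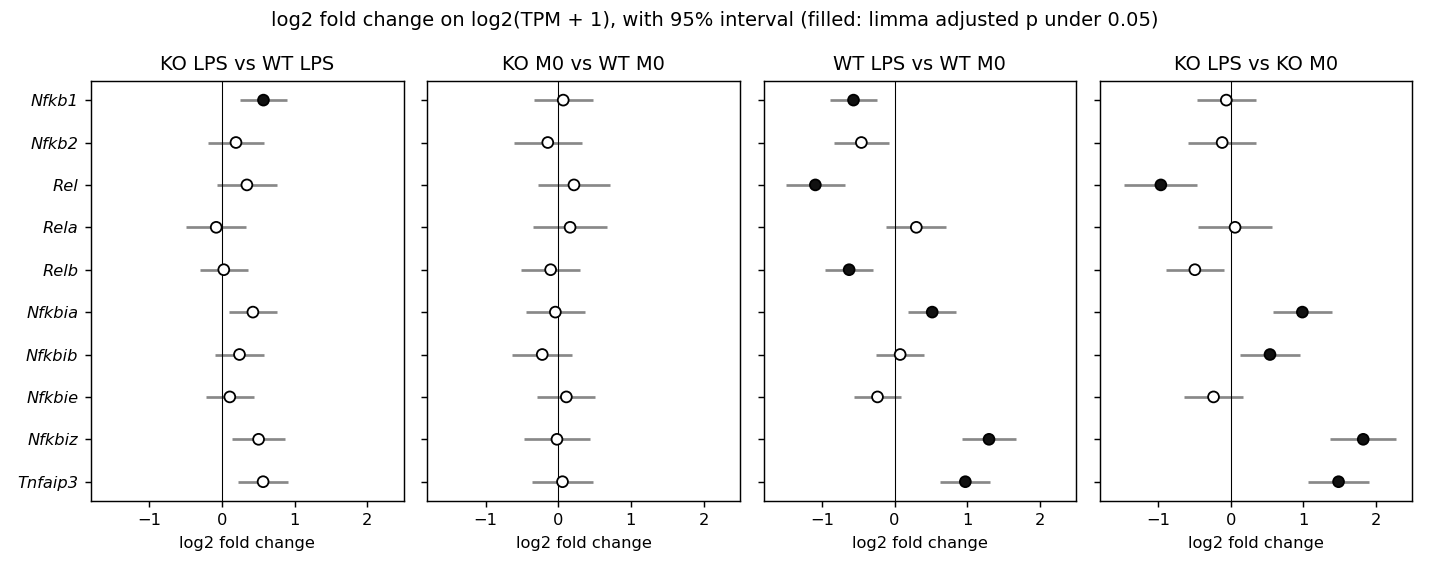
log2 fold change (x axis) of each of the 10 genes on the log2(TPM + 1) scale, with its 95% interval from limma, in 4 comparisons. Filled points passed the adjusted p threshold of 0.05. Nfkbiz, Tnfaip3 and Nfkbia lie right of 0 and Rel lies left of 0 in both LPS comparisons. No gene passed in KO M0 vs WT M0.

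Summed transcripts of the IkappaB genes Nfkbia, Nfkbib and Nfkbie outweighed those of the subunits in the LPS libraries and not in the untreated ones. This inhibitor sum leaves out Nfkbiz and Tnfaip3, so it does not cover all listed inhibitor genes. The ratio with those genes included was not computed. Ratios within a library do not change when all its values are scaled by the same factor. They were not recomputed under quantile normalization. The summed TPM of Nfkbia, Nfkbib and Nfkbie, divided by the summed TPM of the 5 subunits, was 1.498 and 1.63 in KO LPS and 1.43 and 1.46 in WT LPS, against 0.860 in KO M0 and 0.910 and 0.831 in WT M0. Nfkbia made up 77.9% and 78.1% of the inhibitor sum in KO LPS and 75.3% and 74.0% in WT LPS, against 64.3% in KO M0 and 66.5% and 63.8% in WT M0. No LPS library overlapped an untreated one in either measure, and KO LPS lay above WT LPS in both. With 1 or 2 libraries a group these ratios are given without a test.

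Among the subunits the LPS libraries held less Rel and more Rela. Rel made up 2.51% and 3.07% of subunit transcripts in KO LPS and 2.48% and 2.66% in WT LPS, against 4.94% in KO M0 and 3.77% and 4.75% in WT M0. Rela made up 19.7% and 17.5% in KO LPS and 23.7% and 22.9% in WT LPS, against 16.0% in KO M0 and 12.9% and 15.7% in WT M0. The Rela share was highest in WT LPS and lowest in WT M0, and no groups overlapped. Nfkb1 held the largest share in every library, narrowly so in WT LPS replicate 1, where Nfkb2 also had 29.4%. The Nfkb1 share was 34.8% and 39.9% in KO LPS against 29.4% and 30.0% in WT LPS, and 35.0% in KO M0 against 32.4% and 34.04% in WT M0. The ratio of Nfkb1 to Rela transcripts was 1.77 and 2.28 in KO LPS against 1.24 and 1.31 in WT LPS, and 2.18 in KO M0 against 2.51 and 2.17 in WT M0.

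**Figure D3:**
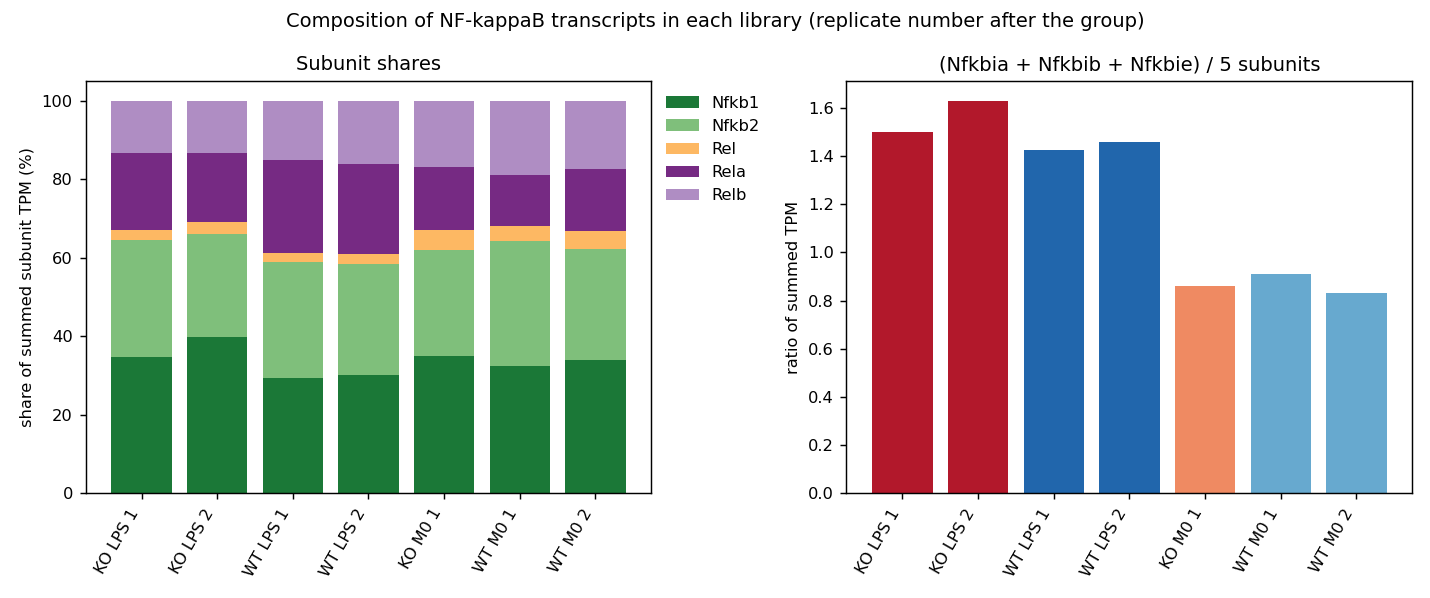
Left, the share of each subunit gene in the summed TPM of the 5 subunits (%, stacked) in each library. Right, the ratio of the summed TPM of Nfkbia, Nfkbib and Nfkbie to that of the 5 subunits (axis from 0). The ratio is 1.43 or higher in each LPS library and 0.910 or lower in each untreated library.

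Promoter sequences are shown for members that rose (Nfkbia, Tnfaip3), that fell (Rel) and that did not pass (Nfkb2) with LPS, because matches to the NF-kappaB site occur in all 4. The windows run from 250 bases before to 50 bases after an annotated start (RefSeq, GRCm38.p6), on the gene's strand. Capitals mark matches to the NF-kappaB consensus site of 10 bases on either strand, and overlapping matches run together. For Tnfaip3 and Nfkb2, which have several annotated starts, the first one in the RefSeq promoter table is shown. The annotated Nfkb2 gene begins upstream of its window.
Nfkbia, chr12:55492598-55492897, minus strand: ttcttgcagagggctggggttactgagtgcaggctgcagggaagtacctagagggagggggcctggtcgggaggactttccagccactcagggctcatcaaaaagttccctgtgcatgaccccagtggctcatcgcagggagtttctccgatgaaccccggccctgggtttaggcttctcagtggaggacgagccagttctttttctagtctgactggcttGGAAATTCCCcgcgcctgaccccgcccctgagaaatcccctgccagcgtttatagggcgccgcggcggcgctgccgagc
Tnfaip3, chr10:19015361-19015660, minus strand: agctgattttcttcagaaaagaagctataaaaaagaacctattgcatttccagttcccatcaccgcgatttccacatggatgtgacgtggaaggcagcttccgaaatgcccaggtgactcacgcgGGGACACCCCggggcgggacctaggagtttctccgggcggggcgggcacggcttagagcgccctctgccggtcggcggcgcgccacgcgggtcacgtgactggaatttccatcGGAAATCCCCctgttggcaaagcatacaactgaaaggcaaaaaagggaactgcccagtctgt
Rel, chr11:23770920-23771219, minus strand: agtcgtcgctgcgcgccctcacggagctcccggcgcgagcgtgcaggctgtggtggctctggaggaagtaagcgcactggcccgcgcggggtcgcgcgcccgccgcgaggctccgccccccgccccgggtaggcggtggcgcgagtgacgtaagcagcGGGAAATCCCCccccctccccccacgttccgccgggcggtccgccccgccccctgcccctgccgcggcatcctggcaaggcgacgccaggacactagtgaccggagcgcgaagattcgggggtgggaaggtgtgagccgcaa
Nfkb2, chr19:46304487-46304786, plus strand: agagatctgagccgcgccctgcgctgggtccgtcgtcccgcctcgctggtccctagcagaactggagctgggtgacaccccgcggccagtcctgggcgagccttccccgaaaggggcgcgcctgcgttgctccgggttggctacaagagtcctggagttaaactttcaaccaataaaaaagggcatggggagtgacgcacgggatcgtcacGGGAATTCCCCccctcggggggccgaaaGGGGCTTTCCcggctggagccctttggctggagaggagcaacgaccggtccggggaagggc

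Of the 10 members, 7 had at least 1 promoter in the RefSeq table, 10 promoters in all, and Nfkb1, Relb and Nfkbiz are named only. The consensus was found in 7 of these 10 promoters, belonging to 5 genes (Nfkb2, Rel, Nfkbia, Nfkbie and Tnfaip3), while 8.46% of all 32851 promoters of the same length hold it. Windows 2 and 3 of Nfkb2 overlap and share 1 site, which is counted in both. A looser pattern, GGGNNNNNCC on either strand, which contains every consensus match, was found in 9 of the 10 and in 50.8% of all promoters. G and C made up 61.0% of the bases for Nfkbia, 56.7% for the Tnfaip3 window, 75.0% for Rel and 65.7% for the Nfkb2 window, against a median of 52.7% over all promoters. The Nfkbia match begins 29 bases before the start. Tnfaip3 has matches 125 and 12 bases before its start, Rel has overlapping matches 92 and 91 bases before, and Nfkb2 has them 39, 38 and 11 bases before. The genes with a match thus include ones that rose, fell and did not pass with LPS. A match describes the letters in the window, not binding.

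**Figure D4:**
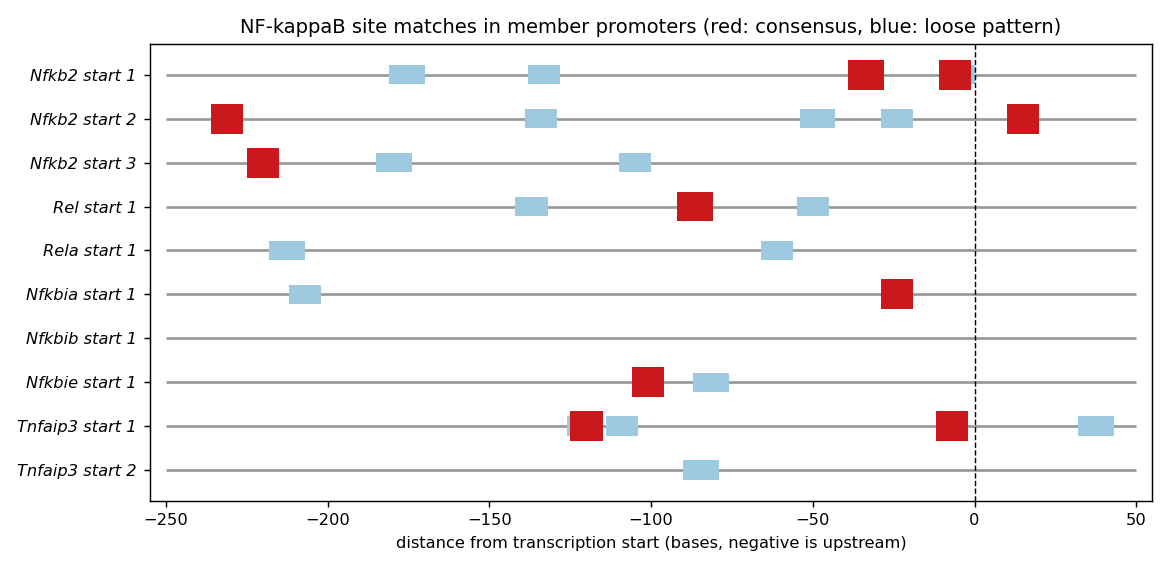
Matches to the NF-kappaB consensus site (red) and to the looser pattern (blue) in the 10 annotated promoters of 7 members, by distance from the transcription start in bases (negative is upstream, dashed line at 0). Consensus matches lie in 7 of the 10 windows, among them those of Rel, which fell, and Nfkbia, which rose.

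Between genotypes under LPS, 9 of the 10 genes had a positive log2 fold change, as did 53.8% of all tested genes. Of the 10 genes 1 passed the test. Nfkb1 had 357 and 361 TPM in KO LPS, against 254 and 229 TPM in WT LPS. The log2 fold change was 0.57 (SE 0.15, 95% interval 0.24 to 0.90, limma adjusted p 0.0450). With the same libraries it missed the threshold under median-ratio scaling (adjusted p 0.0668), quantile normalization, chosen after seeing the data (0.0695), and no filter on low values (0.0840). It was also missed without KO LPS replicate 1 (0.121) or 2 (0.168), WT LPS replicate 1 (0.124) or 2 (0.326) and WT M0 replicate 1 (0.0514) or 2 (0.0508). Over all alternatives the log2 fold change stayed between 0.50 and 0.65.

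The genes of the inhibitor list that rose with LPS in both genotypes had higher values in knockout cells without passing. Tnfaip3 had 459 and 471 TPM in KO LPS against 333 and 295 TPM in WT LPS, a log2 fold change of 0.57 (95% interval 0.22 to 0.91, limma adjusted p 0.0550). Nfkbiz, at 247 and 252 TPM in KO LPS against 196 and 157 TPM in WT LPS, had 0.50 (0.13 to 0.87, adjusted p 0.112). Nfkbia had 0.43 (0.10 to 0.76, adjusted p 0.133). Both knockout libraries lay above both wild-type libraries for 7 of the 10 genes, against 28.7% of all tested genes: Nfkb1, Rel, Nfkbia, Nfkbib, Nfkbie, Nfkbiz and Tnfaip3. For Rel the log2 fold change was 0.34 (-0.07 to 0.75, adjusted p 0.344), for Nfkbib 0.24 (-0.09 to 0.58, adjusted p 0.430) and for Nfkbie 0.11 (-0.22 to 0.44, adjusted p 0.760).

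Rela, Relb and Nfkb2 overlapped between the genotypes under LPS. Relb had a log2 fold change of 0.03 (95% interval -0.30 to 0.36, limma adjusted p 0.957), Rela of -0.08 (-0.49 to 0.34, adjusted p 0.880) and Nfkb2 of 0.19 (-0.19 to 0.57, adjusted p 0.606). A p that misses the threshold does not show that these genes were equal. Over the 10 genes the median was 0.29, against 0.03 over all tested genes, and 1 of 10 was called higher where 4.59% of all tested genes were. At an unadjusted p under 0.05 there were 4 of the 10, Nfkb1, Tnfaip3, Nfkbiz and Nfkbia, where 20.0% of all tested genes had one.

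Without LPS no member passed between genotypes, and none had an unadjusted p under 0.05, which 1.39% of all tested genes had. With adjustment, 0.00901% of tested genes passed, which is Tgm2 alone. Log2 fold changes ran from -0.22 for Nfkbib (95% interval -0.63 to 0.19) to 0.22 for Rel (-0.29 to 0.72), with a median of 0.02 against 0.06 over all tested genes. Nfkb1 (0.07, SE 0.18) and Nfkbia (-0.04, SE 0.18) were near 0. The 95% interval for Nfkb1 was -0.33 to 0.47. With 1 KO M0 library, its spread was taken from the groups that have replicates.

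The difference between the LPS responses of the genotypes, tested directly, did not pass for any member, where 1.37% of all tested genes were called. No member had an unadjusted limma p under 0.05, which 10.5% of all tested genes had. That 0 depended on the setting. It became 3 with no filter on low values, 3 with the replicate block and 1 with median-ratio scaling. The share over all tested genes was not computed for those settings. Subtracting the wild-type change from the knockout change gave 0.52 for Nfkbiz (SE 0.26, limma adjusted p 0.549), 0.51 for Tnfaip3 (SE 0.25, adjusted p 0.529), 0.50 for Nfkb1 (SE 0.23, adjusted p 0.497) and 0.47 for Nfkbia (SE 0.24, adjusted p 0.550). It was -0.24 for Rela (SE 0.30, adjusted p 0.857). The difference was positive for 8 of the 10 genes, with a median of 0.40 against -0.02 over all tested genes. It was positive for 48.1% of all tested genes.

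No listed gene upstream of NF-kappaB passed between genotypes under LPS. The counts were 0 of 17 IKK and upstream kinase genes and 0 of 14 TRAF adaptor and ubiquitin ligase genes. Over all tested genes 4.59% were called higher and 2.58% lower, so 0 in lists this short is near that share. At an unadjusted limma p under 0.05 there were 4 and 3, against 20.0% of all tested genes. Ikbkg, the regulatory IKK subunit NEMO, encoded on the X chromosome (chrX:74393233-74456792), had 35.2 and 34.01 TPM in KO LPS against 51.5 and 55.7 TPM in WT LPS (log2 fold change -0.62, SE 0.16, limma adjusted p 0.0505). The WT LPS libraries are those with Xist transcripts. It passed without KO M0 replicate 1 and under 4 other alternatives, with adjusted p as low as 0.0293. Peli1, a ubiquitin ligase of the Toll pathway, had 0.65 (SE 0.18, adjusted p 0.0510), and Irak2, a Toll pathway kinase, 0.58 (SE 0.18, adjusted p 0.0899).

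With LPS the genes of the IKK and upstream kinase list moved in both directions. That list also holds genes of non-kinase partners such as Ikbkg, Tab1 and Tab2. In knockout 4 rose and 1 fell, and in wild type 6 rose and 2 fell, of 17. Over all tested genes 13.8% were called higher and 24.3% lower in knockout, and 15.0% and 29.6% in wild type. Irak3, an inhibitory member of the IRAK family, had 398 and 419 TPM in KO LPS against 85.3 TPM in KO M0, and 372 and 410 TPM in WT LPS against 78.0 and 84.4 TPM in WT M0 (log2 fold change 2.25 in knockout, SE 0.18, and 2.25 in wild type, SE 0.15). Map3k14, the NIK kinase that starts the non-canonical pathway of Relb and p52, fell with LPS to 7.87 and 8.77 TPM in KO LPS, against 44.8 TPM in KO M0, and to 11.2 and 13.5 TPM in WT LPS, against 43.7 and 48.4 TPM in WT M0. Its limma adjusted p was 2.27e-05 in knockout and 2.12e-05 in wild type. Of the 14 TRAF and ubiquitin ligase genes 5 rose and 0 fell in each genotype, among them Traf1 (1.08 in knockout, SE 0.19, and 1.01 in wild type, SE 0.16) and Peli1 (1.69, SE 0.21, and 1.04, SE 0.18).

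In KO LPS vs WT LPS 4.59% of all tested genes were called higher and 2.58% lower. Of 17 tested further regulators, a list that also holds the atypical IkappaB genes Bcl3 and Nfkbid, 1 was higher and 0 were lower. It was Tnip3, whose product binds A20, at 148 and 207 TPM in KO LPS against 97.8 and 109 TPM in WT LPS (log2 fold change 0.75, SE 0.20, limma adjusted p 0.0486). Of 13 alternatives 9 ended that call, among them leaving out KO LPS replicate 2 (0.51, adjusted p 0.293), WT LPS replicate 1 (0.216) or 2 (0.156), and WT M0 replicate 1 (0.0576) or 2 (0.0550). Without LPS Tnip3 had 192 TPM in KO M0 and 161 and 208 TPM in WT M0. Its LPS change was -0.14 in knockout (SE 0.24) and did not pass. In wild type it was -0.82 (SE 0.20, limma adjusted p 0.00703), a fall that 2 of 13 alternatives took out of the calls. So WT LPS was below the untreated libraries. Of the 17 regulators 5 rose and 0 fell with LPS in knockout, and 7 rose and 2 fell in wild type. Over all tested genes 13.8% were called higher and 24.3% lower in knockout, and 15.0% and 29.6% in wild type. The list was led by Usp18, an interferon-induced protease (5.69, SE 0.29, in knockout and 4.95, SE 0.24, in wild type). The median for KO LPS vs WT LPS was 0.06 for the kinases, 0.17 for the TRAF and ligase genes and 0.07 for the regulators, against 0.03 over all tested genes.

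The listed NF-kappaB target genes had larger median changes than the members between genotypes under LPS and with LPS in each genotype, a description with no test. Of 43 tested, 13 were higher and 1 was lower in KO LPS than in WT LPS, with a median of 0.44. Of all tested genes 4.59% were called higher and 2.58% lower. The 5 target genes with the smallest limma p, all higher, were Il12b (log2 fold change 3.14, SE 0.22), Ccl2 (3.15, SE 0.28), Il6 (2.74, SE 0.27), Lcn2 (1.54, SE 0.17) and Cxcl1 (1.65, SE 0.20). The single lower gene was the chemokine gene Cxcl3 (-1.06, SE 0.25, limma adjusted p 0.0323), named after its value was seen, with 9 of 13 alternatives ending the call, the smallest change being -0.64 (adjusted p 0.185) without KO LPS replicate 2. With LPS 36 rose and 3 fell in knockout (median 2.26) and 32 rose and 4 fell in wild type (median 1.40). Over all tested genes 13.8% were called higher and 24.3% lower in knockout, and 15.0% and 29.6% in wild type. Of the 43 target genes 6 had a larger LPS change in knockout by the direct test and 0 a smaller one. Of all tested genes 1.37% were called, in either direction. The 6 became 0 when low values were not filtered out. Leaving out 1 library gave 3 for KO LPS replicate 2, 10 for WT LPS replicate 1 and 1 for WT M0 replicate 1. Traf1 and Birc3 are in both the target and the TRAF list.

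**Figure D5:**
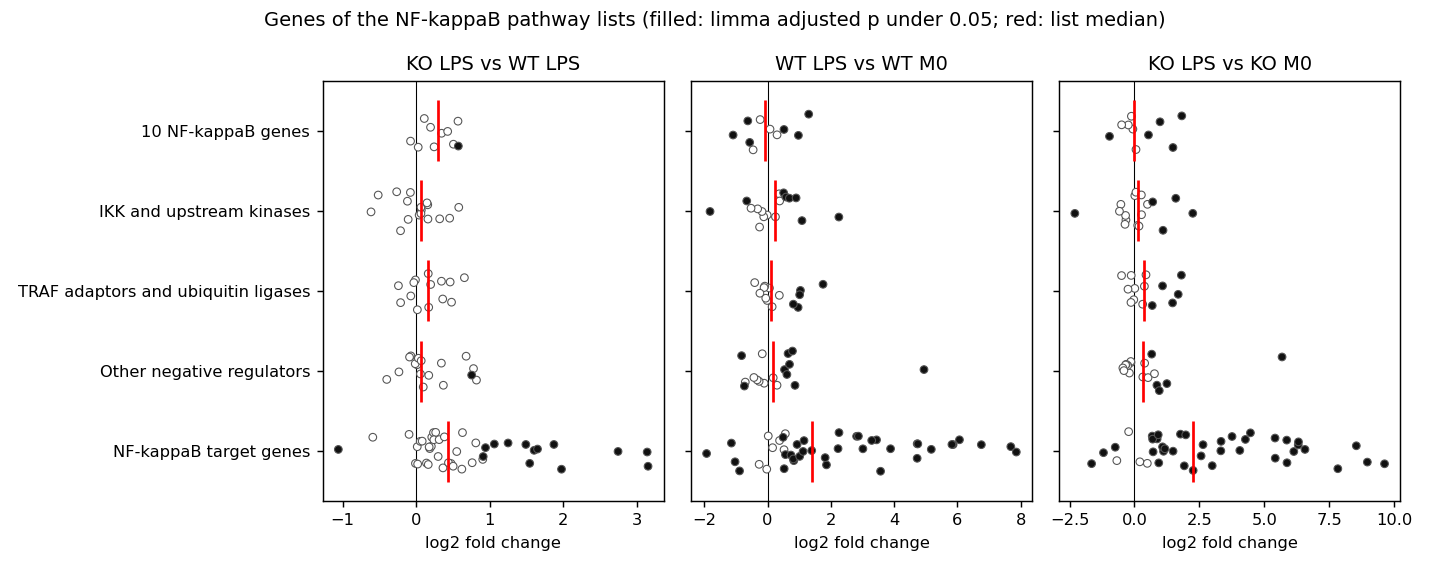
log2 fold change (x axis, its range differs by panel) of the 10 NF-kappaB genes and of the genes in 4 pathway lists, in KO LPS vs WT LPS and in the LPS comparison of each genotype. Each point is a gene, filled where the limma adjusted p is under 0.05, vertical scatter is for display, and red lines are medians. In KO LPS vs WT LPS the target genes reach past 3 log2 units while all 10 members lie between -0.08 and 0.57.

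Across the 7 libraries, which form an LPS and an untreated set, Pearson's correlation of log2(TPM + 1) over 8993 genes named the ones most like each member. For Nfkbiz they were Lrch1 (r = 0.999) and Samsn1 (0.999), and for Tnfaip3 Tnfsf15 (0.998) and Cd69 (0.998). For Rel they were Hgf (0.997) and Cdk6 (0.996), and for Nfkb1, whose wild-type LPS libraries were low, Sdccag3 (0.996) and Cdkn2c (0.985). With 7 points and this many genes compared, such values describe the libraries only.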

How the data were processed

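The data are RNA sequencing of 7 macrophage libraries, grouped by sample title. The authors deposited 1 table per library with TPM per gene. The submitters' processing notes name mm10 as the build. The aligner, quantifier, annotation and strand setting were not given in the sources used here, which leaves values of overlapping genes uncertain. TPM keep no depth, so no counting interval is given.

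A mean over libraries of 1 TPM or more was required, which kept 11096 genes. limma 3.58.1 in R 4.3.3 fitted group means on log2(TPM + 1) over all 7 libraries (3 residual degrees of freedom, prior 7.3), with variances moderated along a mean trend and Benjamini-Hochberg adjustment over all tested genes at 0.05. The 5 comparisons set knockout against wild type with and without LPS, LPS against no LPS in each genotype, and the LPS change of knockout against that of wild type. The fit was tested on simulated data. Gene positions and promoters came from RefSeq tables of GRCm38.p6, the assembly of mm10, and exon overlaps from GENCODE M21. Figures were drawn with matplotlib 3.10.9.

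Named genes were all members, Tgm2, up to 5 and 3 genes with the smallest p per pathway list in KO LPS vs WT LPS and WT LPS vs WT M0, the 2 genes most like each member at a mean TPM of at least 5, and sex-linked transcripts. Marker genes, Cxcl3 and the genes in the closing observations fall outside that rule. The members and lists were chosen with earlier results of these data known. The alternatives tried were scaling by median ratios, a pseudocount of 0.1, no filter, the compared groups alone, the replicate number as a block and each library left out. Quantile normalization, and leaving both WT LPS libraries out of the fit, were added after seeing the data.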

Additional observations from a re-analysis of the deposited data

How the results depend on the processing

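The members were refitted 630 times (10 genes, 5 comparisons, up to 13 alternatives). Of these refits 597 kept the outcome, whether called or not called, 23 lost a call and 10 gained one. The 597 include all 130 refits of KO M0 vs WT M0 and all 110 of the difference between LPS changes, where no member was called. The losses were 9 in KO LPS vs WT LPS, 7 in WT LPS vs WT M0 and 7 in KO LPS vs KO M0. No called fold change changed sign. In KO LPS vs WT LPS 1 member passed with all libraries, and 0 did with median-ratio scaling, quantile normalization or no filter on low values. Leaving out a library gave 0 to 1. In WT LPS vs WT M0 the count stayed between 4 and 8 (6 with all libraries) and in KO LPS vs KO M0 between 4 and 6 (5). KO M0 vs WT M0 and the difference between LPS changes had 0 under every alternative run. Same-numbered libraries deviated together only in part (correlation over genes 0.18 for KO LPS with WT LPS, 0.30 for KO LPS with WT M0, 0.080 for WT LPS with WT M0), and the labels tie no numbers to a shared animal or day. With the replicate block, 2 members passed in KO LPS vs WT LPS, Nfkb1 and Tnfaip3 (adjusted p 0.0416), Nfkb2 passed in WT LPS vs WT M0 (0.0185) and Relb in KO LPS vs KO M0 (0.0294).

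Over all tested genes, KO LPS vs WT LPS called 795, but 307 with no filter, 506 without KO LPS replicate 1, 385 without KO LPS replicate 2 and 428 without WT LPS replicate 2. KO M0 vs WT M0 called 1, but 2 with a pseudocount of 0.1, 20 with no filter, 40 with the compared groups alone and 6 without WT M0 replicate 2. The difference between LPS changes called 152, but 92 with a pseudocount of 0.1, 10 with no filter, 72 and 64 without KO LPS replicate 1 or 2, and 16 and 93 without WT M0 replicate 1 or 2. Median-ratio scaling moved the median LPS change over all genes to -0.01 in both genotypes, and gave 2108 higher and 1842 lower calls in knockout (1533 and 2700 as deposited) and 2421 and 2332 in wild type (1665 and 3284). Comparisons with KO M0 cannot be fitted without that library.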

Other observations

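Untreated macrophages already held transcripts of listed NF-kappaB targets. These genes were picked after their values were seen. Tnfaip2 stood at 796 TPM in KO M0 and 841 and 787 TPM in WT M0. The chemokine gene Cxcl2 stood at 522 TPM in KO M0 and 490 and 512 TPM in WT M0, and Il1b at 307 TPM in KO M0 and 223 and 292 TPM in WT M0. Il6, by contrast, was at 0.780 TPM in KO M0 and 0.793 and 0.624 TPM in WT M0.

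Of the IkappaB-related genes in the regulator list, also picked after their values were seen, Nfkbid and Bcl3 had no higher value with LPS, while Nfkbil1, an IkappaB-like gene, rose in knockout. Nfkbil1 had 28.5 and 24.8 TPM in KO LPS against 10.6 TPM in KO M0, and 20.1 and 13.04 TPM in WT LPS against 18.4 and 10.9 TPM in WT M0. Its LPS change was 1.25 in knockout (SE 0.33, limma adjusted p 0.0126) and 0.18 in wild type (SE 0.27, adjusted p 0.618), and the difference between them did not pass (adjusted p 0.379). With no filter on low values the knockout call was lost (adjusted p 0.0827). Nfkbid had 37.95 and 35.1 TPM in KO LPS and 34.2 and 23.0 TPM in WT LPS, against 50.1 TPM in KO M0 and 48.4 and 46.1 TPM in WT M0. Its LPS change was -0.45 in knockout (SE 0.25, limma adjusted p 0.177) and -0.73 in wild type (SE 0.20, adjusted p 0.013). Bcl3 did not pass in either genotype (-0.34, SE 0.24, in knockout and -0.33, SE 0.20, in wild type).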
